A study of Rattus norvegicus with 6 samples.

Results

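Heart muscle cells under biaxial stretch were set directly against heart muscle cells given phenylephrine, to show which functions separate a mechanical from an adrenergic stimulus. The comparison rests on the 2 arrays titled as stretch and the 2 arrays titled as phenylephrine, which were chosen by their titles alone and make up 4 of the 6 arrays of the study. The other 2 arrays hold untreated cells. They were not part of the contrast, and served to estimate the spread between arrays and to show where the untreated level of a gene lay.

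All cells were cardiomyocytes isolated from the hearts of Wistar rats 1 to 2 days after birth, parted from fibroblasts by centrifugation in Percoll and grown in medium with 10% serum. The stretched cells sat on a silicone membrane coated with collagen type I for 36 h, then spent 24 h without serum, and were stretched biaxially to 112% for 24 h. The phenylephrine cells received 50 µmol/l of this drug. Their treatment text also names endothelin-1 and angiotensin II as agents given separately, whereas the array titles and the series design name phenylephrine only. The sources used here do not state how long phenylephrine was given, on which surface the phenylephrine and control cells grew, or whether their serum was withdrawn, so the stimulus cannot be told apart from such differences in culture. RNA was pooled from several preparations, and whether the arrays of a group stand for separate cultures is not stated. All p-values thus cover only the spread between these samples, and that spread may be technical.

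Stretch reaches a heart muscle cell through its attachment to the matrix, by way of integrins, focal adhesions, the cytoskeleton and ion channels. Phenylephrine binds the α1-adrenergic receptor, which acts through the G protein Gq on phospholipase C, calcium and protein kinase C. Both are used to make cultured cardiomyocytes grow, and both are known for bringing back genes of the fetal heart such as the natriuretic peptides.

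Each array gave 1 log2 signal for each of 31042 probe sets, short sets of oligonucleotides that each read 1 or more transcripts. The medians of the 6 arrays lay between 8.30 and 8.33. Their interquartile ranges were 1.89 to 1.92 for the arrays numbered 1 and 1.70 to 1.82 for those numbered 2, with phenylephrine replicate 2 lowest. That array also had the lowest signal in its hybridization controls, which are spiked in after RNA extraction, with a median of 9.31 against 10.1 to 10.4 on the other 5 arrays. RNA integrity, read as the signal of 3′ over 5′ probe sets, was 0.25 and 0.30 log2 for GAPDH with phenylephrine against 0.36 and 0.48 with stretch, and 1.04 and 0.97 against 1.10 and 1.41 for β-actin, while for hexokinase it was 1.65 and 1.88 against 1.45 and 1.29. The part of these array differences in the results was not tested. The labelled cell type was borne out by the 11 measured markers of cardiac myocytes. Their brightest probe sets had a median percentile of 99.8 among all probe sets, the lowest standing at 97.7. The median percentile was 86.6 for fibroblast markers, 68.7 for smooth muscle and pericyte markers, 54.3 for macrophage and leukocyte markers and 43.5 for endothelial markers. The share of other cells in the cultures was not tested.

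A gene is called here when its adjusted p in the limma fit is under 0.05, and differences are given as stretch minus phenylephrine on the log2 scale with the standard error (SE) of the fit and n = 2 arrays a group. Of the 14217 named genes, 261 were called, which is 1.84%. Of these, 142 (0.999%) were higher in stretch and 119 (0.837%) were lower in stretch and so higher in phenylephrine. A difference of at least 2-fold was reached by 35 of the genes higher in stretch and by 33 of those lower. Over all named genes the median difference was 0.0086, and the middle of the distribution ran from -0.066 to 0.11 between its quartiles. Genes are also grouped below into lists by function. Members of the lists were chosen with earlier results of these data known, so the count of calls in a list may be raised by that choice.

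The untreated level stood in a different place for the 2 directions. Of the 119 genes called as lower in stretch, 117 had a control mean closer to stretch than to phenylephrine, and in 80 of them it lay below both. A control below both is closer to the lower group by construction, and in some of these genes stretch stood above control too, by 1.45 in Cnn1 and 1.04 in Slc16a3. Of the 142 genes called as higher in stretch, the control mean was closer to stretch for 91 and closer to phenylephrine for 51. It lay between the 2 groups in 78, above both in 47 and below both in 17. Above both it is closer to stretch by construction, and stretch too then stood below control. Below both it is closer to phenylephrine by construction. The direction higher in stretch therefore holds genes that stretch set apart, such as Gdf15 and Hmox1, and genes for which the phenylephrine arrays were the low ones, such as Reg3b and Ptprr.

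**Figure D1:**
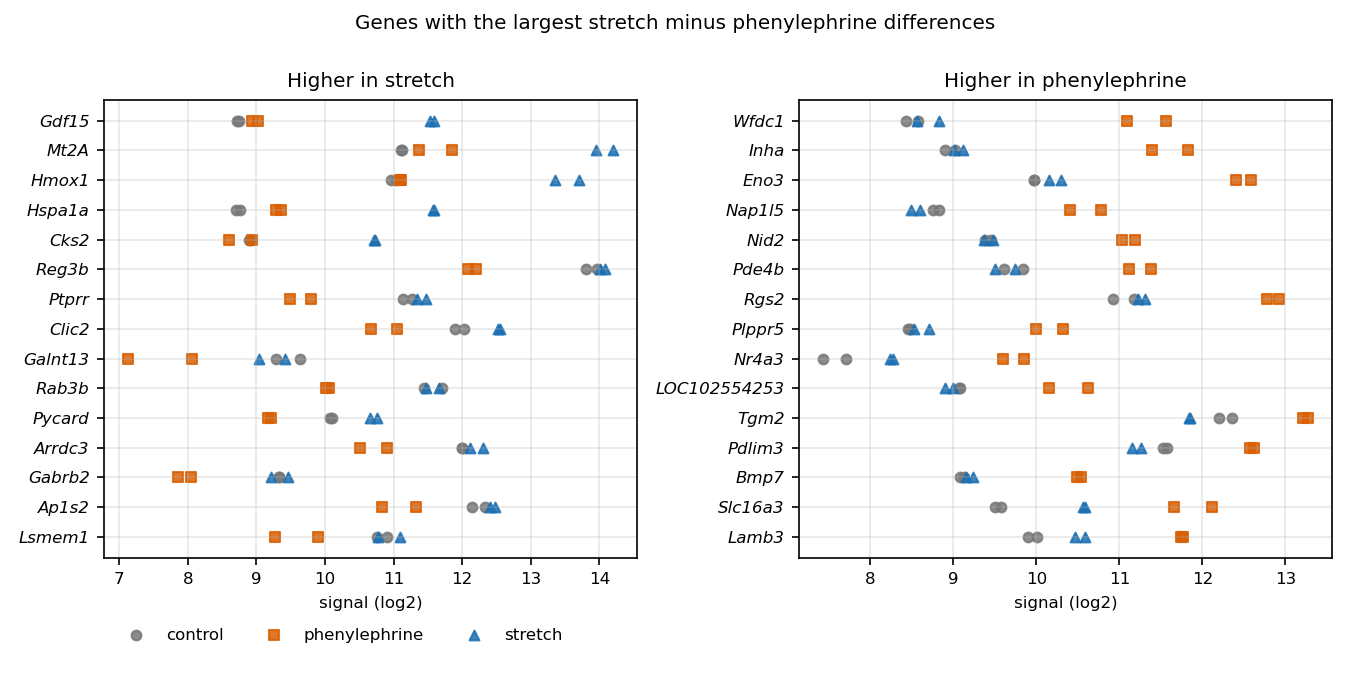
Log2 signal of every array for the 15 genes with the largest differences higher in stretch (left) and the 15 higher in phenylephrine (right), 1 point per array, coloured by control, phenylephrine and stretch. For Gdf15, Mt2A, Hmox1 and Hspa1a the stretch points lie apart from the other 4, and for most genes of the right panel the phenylephrine points do.

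Single arrays carried weight in these counts. Over probe sets, 413 were called (1.33%), 223 of them higher in stretch. Without phenylephrine replicate 1 the split was 361 higher and 112 lower, and without phenylephrine replicate 2 it was 74 and 190. Without stretch replicate 1, 51 probe sets were called in all, without stretch replicate 2, 65, and without control replicate 1 or 2, 215 and 223. Of the 110 genes that the naming rule picked for description, 91 were called, and 27 of those 91 stayed called whichever array was left out. No called probe set changed direction in any of these fits.

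**Figure D2:**
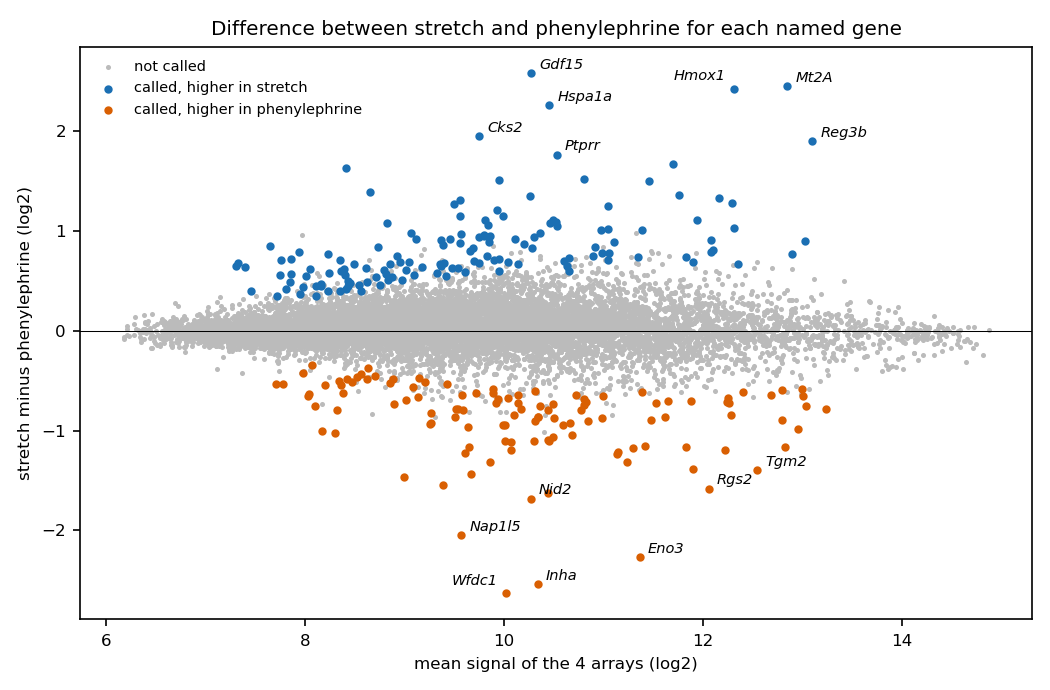
Difference between stretch and phenylephrine (log2) against the mean signal of the 4 arrays (log2), 1 point per named gene, grey where not called, blue where called as higher in stretch and orange where called as higher in phenylephrine. The calls span the range of signal, the largest on either side being Gdf15 at 2.59 and Wfdc1 at -2.63.

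The largest differences higher in stretch were those of genes of the stress responses. Gdf15, a hormone that stressed cells secrete (probe set 1370153_at), read 11.53 and 11.60 on the stretch arrays, 9.02 and 8.94 on the phenylephrine arrays and 8.72 and 8.75 on the control arrays. Both stretch arrays lay far above the other 4, a difference of 2.59 ± 0.10 or 6.00-fold (adjusted p = 0.000173). Mt2A, a metallothionein that binds zinc and other metals (1388271_at), read 13.95 and 14.20 with stretch, 11.86 and 11.38 with phenylephrine and 11.11 and 11.12 in controls. Its difference was 2.45 ± 0.17, 5.48-fold (adjusted p = 0.00137). Its lowest stretch array was above its highest phenylephrine array, although the phenylephrine arrays were further apart than those of Gdf15.

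Hmox1, heme oxygenase 1, which degrades heme (1370080_at), read 13.35 and 13.70 with stretch, against 11.09 and 11.11 with phenylephrine and 10.96 and 11.03 in controls. The phenylephrine and control arrays were close together, and stretch stood 2.43 ± 0.14 or 5.38-fold above phenylephrine (adjusted p = 0.000775). Hspa1a, the inducible chaperone Hsp70 (1370912_at), read 11.59 and 11.58 with stretch, 9.36 and 9.29 with phenylephrine and 8.71 and 8.76 in controls. The difference was 2.26 ± 0.10, 4.79-fold (adjusted p = 0.000257). Hspa1a has a near-identical copy, so its probe set may read both. Cks2, a small protein that binds cyclin-dependent kinases (1373823_at), followed with 10.71 and 10.73 in stretch against 8.93 and 8.59 in phenylephrine and 8.89 and 8.92 in controls, 3.88-fold (1.96 ± 0.12; adjusted p = 0.000926). These 5 genes stayed called whichever array was left out.

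The promoter of Mt2A is shown because metallothionein promoters are known for metal response elements, the sites of the zinc-sensing factor MTF1. The sequence is that of RefSeq on the rat assembly GRCr8, 5′ to 3′ on the gene's own minus strand, from 250 bases before to 50 bases after the annotated start, at chr19:10838659-10838958. Capitals mark matches to TGCACNC or TGCGCNC on either strand.
Mt2A: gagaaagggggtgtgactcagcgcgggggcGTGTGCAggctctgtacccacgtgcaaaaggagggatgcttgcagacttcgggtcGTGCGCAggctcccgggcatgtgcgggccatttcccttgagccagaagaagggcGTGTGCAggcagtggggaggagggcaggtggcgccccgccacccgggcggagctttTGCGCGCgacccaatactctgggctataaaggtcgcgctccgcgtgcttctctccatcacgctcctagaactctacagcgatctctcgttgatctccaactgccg
There were 4 matches, the first bases of which lay at -220, -165, -111 and -55 from the start. Of the 33469 rat promoters of the same length in the table, 24.2% held at least 1 match to either form. The data hold no measurement of factor binding at these letters.

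Other genes of the same responses moved less. Of the 7 measured genes for metallothioneins and zinc transport, 1 was called (Mt2A). Mt1, another metallothionein, differed by 0.34 with an adjusted p of 0.0844; it was chosen after its value was seen. Of the 21 measured heat shock and chaperone genes, 1 was called as higher (Hspa1a) and 1 as lower in stretch. The latter was Hspb3, a small heat shock protein of muscle, with a difference of -0.84 ± 0.13 (adjusted p = 0.0266). The median of the list was 0.04, inside the quartiles of all genes.

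Of the 17 measured genes for NRF2 and glutathione, the defence against oxidants, 3 were called and all 3 were higher in stretch. Beside Hmox1 these were Srxn1, sulfiredoxin (1.11 ± 0.12; adjusted p = 0.00664), and Osgin1, an oxidative stress growth inhibitor (0.94 ± 0.12; adjusted p = 0.014). The median of the list was 0.25 against 0.0086 over all genes, and 16 of the 17 differences were above 0. That median was 0.12 without phenylephrine replicate 2 and 0.37 without phenylephrine replicate 1. Of the 2 other Srxn1 probe sets, 1 gave 0.57 and 1 gave -0.02, neither of them called. The calls of Srxn1 and Osgin1 were lost without stretch replicate 1 (adjusted p = 0.0622 and 0.125) or stretch replicate 2 (0.0703 and 0.0646), and that of Hspb3 without either phenylephrine array (0.0623 and 0.0567) or either stretch array (0.136 and 0.231).

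The ATF4 response to lack of amino acids and to endoplasmic reticulum stress was represented by 38 measured genes, with 5 called as higher in stretch and 1 as lower. After Gdf15 the higher ones were Trib3, a pseudokinase induced by ATF4 (0.96 ± 0.09; adjusted p = 0.00495), Ddit3, the stress transcription factor CHOP (0.84 ± 0.12; 0.0214), Cebpb, a partner of ATF4 (0.78 ± 0.11; 0.0191), and Cth, which makes cysteine (0.40; 0.0258), the last named outside the rule after its value was seen. The lower one was Ddit4, an inhibitor of mTOR signalling, at -0.72 ± 0.10 (adjusted p = 0.0179). Trib3 read 10.29 and 10.27 with stretch, 9.38 and 9.25 with phenylephrine and 8.62 and 8.68 in controls, so that phenylephrine stood between control and stretch. For Ddit3 and Cebpb the phenylephrine arrays stood below the controls instead, by 0.19 and 0.26. Over the 38 the median was 0.12, and without phenylephrine replicate 2 it was 0.03. None of the 20 chaperones and enzymes of endoplasmic reticulum folding was called in the limma fit, 2 had an unadjusted p under 0.05, and their largest difference was that of Hyou1, a chaperone of the reticulum (0.46 ± 0.11; adjusted p = 0.104). The call of Trib3 was lost without stretch replicate 1 (adjusted p = 0.0613). The calls of Ddit3, Cebpb and Ddit4 were lost without either stretch array (0.163 to 0.194) and without either control (0.0586 to 0.0635), and that of Ddit3 also without phenylephrine replicate 2 (0.0512).

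For other genes higher in stretch the phenylephrine arrays were the low ones, and stretch lay near control. Reg3b, a secreted C-type lectin of the acute phase (1368238_at), read 12.20 and 12.08 with phenylephrine against 14.01 and 14.08 with stretch and 13.97 and 13.81 in controls, 3.75-fold higher in stretch (1.91 ± 0.10; adjusted p = 0.000716). Ptprr, a phosphatase that acts on MAP kinases (1368358_a_at), read 9.80 and 9.48 with phenylephrine, 11.48 and 11.34 with stretch and 11.26 and 11.14 in controls (1.77 ± 0.14; 3.41-fold; adjusted p = 0.0022). Rab3b, a small GTPase of secretory vesicles, showed the same arrangement, with stretch and control means 0.01 apart and phenylephrine 1.53 ± 0.13 lower than stretch (adjusted p = 0.00337).

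Kcnip2, the subunit that accompanies the channels of the transient outward potassium current (1373987_at), was another such gene. It read 11.72 and 11.58 with phenylephrine, 12.86 and 13.00 with stretch and 13.02 and 12.88 in controls (1.28 ± 0.12; 2.43-fold; adjusted p = 0.00378). Of the 21 measured potassium channel genes it was the 1 called, and the median of the list was 0.04. Its 2 other probe sets gave 0.76 and -0.07, and neither was called. Reg3b, Ptprr, Rab3b and Kcnip2 stayed called whichever array was left out.

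Among the remaining 15 largest differences higher in stretch were Clic2, an intracellular chloride channel protein (1.67 ± 0.15), Pycard, the adaptor ASC of the inflammasome (1.51 ± 0.10), Arrdc3, an arrestin-like protein of receptor traffic (2.84-fold), and Gabrb2, a subunit of the GABA-A receptor (1.39 ± 0.11). Galnt13, an enzyme that starts O-linked sugar chains (1.63 ± 0.28), Ap1s2, a clathrin adaptor subunit (1.36 ± 0.17), and Lsmem1 (1.35 ± 0.21) were the others, with adjusted p from 0.00109 to 0.0381 over the 7. Galnt13 and Gabrb2 had other probe sets that showed no such difference, at -0.13 for both of Galnt13 and 0.07 for that of Gabrb2. The calls of Galnt13 and Lsmem1 were lost without phenylephrine replicate 2 (adjusted p = 0.0769 and 0.0588) and without either stretch array (0.0967 to 0.203), that of Ap1s2 without either stretch array (0.114 and 0.0905) and that of Arrdc3 without stretch replicate 2 (0.0608).

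The genes higher in phenylephrine were led by Wfdc1, a secreted protein with a whey acidic protein domain (1387873_at). It read 11.57 and 11.09 with phenylephrine, 8.83 and 8.57 with stretch and 8.58 and 8.43 in controls, 6.19-fold higher in phenylephrine (-2.63 ± 0.17; adjusted p = 0.000926). Inha, the α subunit of the hormone inhibin (1387124_at), read 11.82 and 11.39 with phenylephrine against 9.12 and 9.01 with stretch and 9.02 and 8.90 in controls, 5.81-fold (-2.54 ± 0.15; adjusted p = 0.000829). Eno3, the enolase of striated muscle (1386907_at), read 12.59 and 12.40 with phenylephrine, 10.30 and 10.16 with stretch and 9.97 in both controls, 4.81-fold (-2.27 ± 0.12; adjusted p = 0.000683). In these genes stretch stood 0.20, 0.11 and 0.26 above control, and the phenylephrine arrays lay far above both.

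Nap1l5, a relative of the nucleosome assembly proteins (-2.05 ± 0.13), and Plppr5, a relative of the lipid phosphate phosphatases (-1.55 ± 0.12), were of the same kind, with stretch at -0.25 and 0.15 from control. Tgm2, the enzyme tissue transglutaminase, which crosslinks proteins (1369943_at), and Pdlim3, a PDZ and LIM protein of the muscle Z-disc (1370291_at), differed from them in the place of the control. Tgm2 read 13.27 and 13.22 with phenylephrine, 12.36 and 12.20 in controls and 11.85 and 11.84 with stretch (-1.40 ± 0.11; 2.64-fold; adjusted p = 0.0022). Pdlim3 read 12.62 and 12.57 with phenylephrine, 11.58 and 11.53 in controls and 11.27 and 11.15 with stretch (-1.39 ± 0.11; 2.62-fold; adjusted p = 0.00224). Control thus lay between the stimuli in both. These 7 genes stayed called whichever array was left out. LOC102554253, a gene without a name in the annotation, was also among the 15 largest (-1.44 ± 0.15), and its call was lost without stretch replicate 1 (adjusted p = 0.052) or 2 (0.056).

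Some genes tied to G protein and cyclic AMP signals were called, and these were higher in phenylephrine. Over all named genes, 0.837% were called in that direction. Of the 14 measured targets of CREB, the transcription factor activated by cyclic AMP and calcium, 5 were called and all 5 were lower in stretch. This list, like the others, was drawn up with earlier results of these data known, which may raise the count. Without either stretch array 4 were called, and in the other omissions 5. The list's median was -0.17. Beside Inha these were Pde4b, a phosphodiesterase that breaks down cyclic AMP (-1.63 ± 0.15; adjusted p = 0.0035), Nr4a3, an orphan nuclear receptor (-1.46 ± 0.11; 0.0022), Sik1, a salt-inducible kinase (-1.11 ± 0.10; 0.00308), and Areg, the EGF receptor ligand amphiregulin (-0.92 ± 0.12; 0.0166). Nr4a3 (1369067_at) read 9.85 and 9.60 with phenylephrine, 8.27 and 8.24 with stretch and 7.71 and 7.44 in controls. Sik1 (1368596_at) read 10.55 and 10.57, 9.51 and 9.39, and 8.98 in both controls, in the same order. In Nr4a3, Sik1 and Areg, stretch thus stood above control and phenylephrine higher still. Further probe sets of Nr4a3 and Sik1 gave smaller differences, -0.88 (called) and -0.15 for Nr4a3 and -0.20 for Sik1. The call of Areg was lost without stretch replicate 1 (adjusted p = 0.0764) or 2 (0.12).

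The promoters of Inha and Areg are shown as the members of this group that differed most and that carry the whole cyclic AMP response element, Areg having been chosen after its value was seen. Both are from RefSeq on GRCr8, 5′ to 3′ on the gene's strand, from 250 bases before to 50 after the start. Inha lies on the plus strand at chr9:84442859-84443158 and Areg on the minus strand at chr14:17265592-17265891. Capitals mark the core TGACG on either strand in Inha and the whole element TGACGTCA in Areg.
Inha: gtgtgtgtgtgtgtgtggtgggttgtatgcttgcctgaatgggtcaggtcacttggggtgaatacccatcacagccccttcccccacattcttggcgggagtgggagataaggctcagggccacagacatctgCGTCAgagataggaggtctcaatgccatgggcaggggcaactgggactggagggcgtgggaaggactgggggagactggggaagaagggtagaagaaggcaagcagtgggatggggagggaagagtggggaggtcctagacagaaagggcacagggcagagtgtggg
Areg: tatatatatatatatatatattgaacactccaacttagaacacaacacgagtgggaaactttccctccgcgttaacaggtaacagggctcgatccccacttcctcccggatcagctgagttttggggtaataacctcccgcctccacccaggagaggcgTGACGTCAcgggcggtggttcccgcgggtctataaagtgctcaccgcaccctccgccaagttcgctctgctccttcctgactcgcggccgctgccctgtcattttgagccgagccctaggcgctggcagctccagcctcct
The match in Inha began at -117 and that in Areg at -91. Of the 12 CREB targets with a promoter in the table, 2 held TGACGTCA (Ppargc1a and Areg) and 7 held TGACG, which is part of it. Over all 33469 promoters the shares were 1.83% and 21.2%. Ppargc1a, which also carries the whole element, differed by 0.23 and was not called. Pde4b, which was called, held no match to TGACG. Outside the list, TGACG stood in promoters of genes of both directions, such as Rab3b, higher in stretch, and Rgs2, lower in stretch.

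Rgs2, which switches off Gq (1387074_at), read 12.92 and 12.77 with phenylephrine, 11.31 and 11.22 with stretch and 11.18 and 10.92 in controls, 2.99-fold higher in phenylephrine (-1.58 ± 0.13; adjusted p = 0.00255). Its other probe set gave -1.73. Of the 14 measured regulators of G protein signalling Rgs2 was the 1 called, as was Pde4b among 15 phosphodiesterases, and the medians of these lists were 0.00 and -0.02. Of the 3 NR4A receptors, Nr4a3 was called. None of the 18 genes for adrenergic and other Gq-coupled receptors, their G proteins, kinases and phospholipases was called in the limma fit, and 3 had an unadjusted p under 0.05. The largest difference of that list was that of Grk5, a kinase that desensitizes receptors, at -0.47 ± 0.09 (adjusted p = 0.0652). Rgs2, Pde4b, Nr4a3 and Sik1 stayed called whichever array was left out.

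The feedback inhibitors of the MAP kinase cascade were split. Of 14 measured, 2 were higher in stretch, namely Ptprr and Dusp2, a nuclear phosphatase of MAP kinases (0.67 ± 0.08; adjusted p = 0.014). Another 2 were lower, Spry1, an inhibitor of growth factor receptor signals (-1.06 ± 0.11; 0.006), and Dusp3, a further phosphatase (-0.71 ± 0.13; 0.0484). Over the 14 the median was -0.20. Spry1 read 11.08 and 10.96 with phenylephrine, 10.01 and 9.91 with stretch and 9.94 and 9.93 in controls, so that the stretch arrays were at the control level. Dusp2 read 9.25 and 9.11 with stretch, 8.58 and 8.45 with phenylephrine and 8.34 and 8.29 in controls, so that stretch stood highest. The calls of Spry1 and Dusp2 were lost without stretch replicate 1 (adjusted p = 0.0654 and 0.12) or 2 (0.0793 and 0.06), that of Dusp2 also without phenylephrine replicate 2 (0.0548), and that of Dusp3 without any 1 array except phenylephrine replicate 2 (0.0674 to 0.32). Another probe set of Dusp3 gave -0.08.

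Immediate early transcription factors were split as well. Of 23 genes of the AP-1 and EGR families and their relatives, 4 were higher in stretch and 1 was lower. The 4 were Myc, a factor of growth (0.97 ± 0.11; adjusted p = 0.00958), Fosl1, the AP-1 subunit Fra-1 (0.92 ± 0.08; 0.00255), Atf3, a stress-induced repressor (0.91 ± 0.11; 0.0113), and Egr1, a zinc finger factor (0.75 ± 0.12; 0.0313). The 1 lower was Fos (1375043_at), which read 10.98 and 10.34 with phenylephrine, 9.65 and 9.29 with stretch and 9.12 and 8.92 in controls (-1.19 ± 0.22; 0.0471). Fosl1 read 9.61 and 9.53 with stretch, 8.65 and 8.65 with phenylephrine and 8.35 and 8.38 in controls. Of these AP-1 subunits, Fos was highest in phenylephrine and Fosl1 in stretch. Myc and Atf3 were near the control level with phenylephrine, at -0.07 and 0.14 from it, and Egr1 was 0.50 below it.

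Of these, Fosl1 stayed called whichever array was left out. The call of Myc was lost without stretch replicate 1 (adjusted p = 0.0874) and that of Atf3 without stretch replicate 1 (0.0999) or 2 (0.0642). Those of Fos and Egr1 were lost without 5 of the 6 arrays, the exception being phenylephrine replicate 2 for Fos (0.0692 to 0.279) and phenylephrine replicate 1 for Egr1 (0.0775 to 0.289). Another, dimmer probe set of Fos gave 0.01.

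Of 16 measured genes of hypertrophy and the fetal heart, none was called in the limma fit and 5 had an unadjusted p under 0.05. After quantile normalization 5 of the 16 were called. The median was -0.17, and 13 of the 16 differences were below 0. Nppa, atrial natriuretic peptide (1367564_at), read 14.69 and 14.92 with phenylephrine, 14.39 and 14.59 with stretch and 13.85 and 13.64 in controls (-0.32 ± 0.12; adjusted p = 0.337, and 0.00997 after quantile normalization). Nppb, its brain-type relative (1367616_at), read 14.29 and 14.36 with phenylephrine and 14.14 and 14.37 with stretch, overlapping, against 13.33 and 13.07 in controls (-0.07 ± 0.12; adjusted p = 0.891). Both stimuli thus lay above the control arrays for both peptides. These signals are near the top of the scale of the arrays, which ended between 14.7 and 15.2, where differences can be compressed.

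Acta1, skeletal muscle α-actin, differed by -0.38 ± 0.11 (adjusted p = 0.19), and Myl4, an atrial myosin light chain, by -0.62 ± 0.15 (0.115). After quantile normalization their adjusted p was 0.0063 and 0.0112, so that both were called and lower in stretch. The other panel genes showed smaller differences. These were Myh7, the slow myosin heavy chain (-0.13 ± 0.11; 0.748), Myh6, its fast counterpart (-0.18 ± 0.10; 0.55), Ankrd1, a stress protein of the sarcomere (-0.20 ± 0.11; 0.52), Rcan1, a target and inhibitor of calcineurin (0.14 ± 0.14; 0.789), and Atp2a2, the calcium pump SERCA2 (0.04 ± 0.11; 0.935). The probe sets read for Myh7, Myh6, Ankrd1 and Atp2a2 were near the top of the scale too, with phenylephrine means of 14.81, 14.58, 14.51 and 14.49. Another, dimmer probe set of Myh6 gave -0.76 ± 0.32 (adjusted p = 0.392). Other probe sets gave -0.33 for Myh7 and -0.36 for Ankrd1. Dimmer ones of Atp2a2 gave 0.04, 0.39, 0.48 and 0.48, so its small difference was not shared by all of them. None of these was called. Among 18 adult contractile and calcium-handling genes none was called in the limma fit, 3 had an unadjusted p under 0.05 and the median was -0.09. Their largest difference was in Trdn, triadin of the calcium release complex (0.58 ± 0.21; adjusted p = 0.29). The median of the 11 cardiac myocyte markers was -0.17, with none called.

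Few genes of smooth muscle filaments and of the cytoskeleton were called, and those that were stood higher in phenylephrine. Over all named genes, 0.837% were called in that direction. Cnn1, calponin, a regulator of smooth muscle contraction (1367785_at), read 11.02 and 10.68 with phenylephrine, 9.80 and 9.69 with stretch and 8.35 and 8.25 in controls, so that both stimuli lay above control and phenylephrine stood 2.15-fold higher than stretch (-1.10 ± 0.13; adjusted p = 0.0109). It was the 1 call among 16 smooth muscle contractile genes, whose median was -0.07. Csrp2, a LIM protein of smooth muscle (1370282_at), read 13.51 and 13.31 with phenylephrine, 12.24 on both stretch arrays and 12.06 and 11.94 in controls (-1.17 ± 0.11; 0.00539). Csrp2 and Actn4, a non-muscle α-actinin (-0.61 ± 0.11; 0.0402), were the 2 calls among 26 genes of actin crosslinking and focal adhesion, with a list median of -0.07. Tubb4b, a β-tubulin, was the 1 call among 10 tubulins (-0.58 ± 0.10; 0.0449).

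The tubulin median was -0.26, but -0.10 without phenylephrine replicate 1 and -0.44 without phenylephrine replicate 2. Of 15 CCN genes and targets of YAP, which respond to mechanical load, none was called in the limma fit and 2 had an unadjusted p under 0.05. The largest difference was in Ccn1, a matricellular protein (0.61 ± 0.16; adjusted p = 0.141), at 10.87 and 10.63 with stretch, 10.35 and 9.94 with phenylephrine and 9.50 and 9.38 in controls. The calls of Cnn1 and Csrp2 were lost without stretch replicate 1 (adjusted p = 0.0764 and 0.0622) or 2 (0.0956 and 0.0558). Those of Actn4 and Tubb4b were lost without any 1 of the 6 arrays (0.0601 to 0.318).

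Markers of smooth muscle and pericytes went both ways. Of 12 measured, 3 were called and all 3 were lower in stretch. They were Cnn1 itself, Cspg4, the proteoglycan NG2 (-0.79), and Mcam, an adhesion molecule (-0.67), the last 2 chosen after their values were seen. Of the 12 differences, 7 were above 0 and 5 below. They ran from -1.10 to 0.99, and the highest was not called. The median of the 12 was 0.04, and their mean signal was 9.59 and 9.48 with phenylephrine, 9.43 and 9.40 with stretch and 9.21 and 9.19 in controls. Among the defining markers, Myh11, the smooth muscle myosin, differed by 0.19 (adjusted p = 0.334) and Acta2, smooth muscle α-actin, by -0.60 (0.0612). In samples of bulk RNA, a change in the number of such cells and a change in their RNA per cell cannot be told apart, and the part of such cells in the differences was not tested.

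Genes of the extracellular matrix were mostly lower in stretch where they were called. Of the 16 measured genes of the basement membrane, the sheet that surrounds each myocyte, 4 were called and all 4 were lower in stretch. They were Nid2, nidogen 2 (-1.68 ± 0.11; adjusted p = 0.001), Lamb3, a laminin β chain (-1.23 ± 0.11; 0.00378), and the 2 chains of the common type IV collagen, Col4a1 (-0.71 ± 0.12; 0.0381) and Col4a2 (-0.67 ± 0.11; 0.0371). Nid2 (1388618_at) read 11.19 and 11.03 with phenylephrine, 9.48 and 9.37 with stretch and 9.46 and 9.38 in controls. Lamb3 (1391022_at) read 11.76 and 11.74 with phenylephrine, 10.46 and 10.58 with stretch and 9.90 and 10.01 in controls. Stretch was at the control level for Nid2 and above it for Lamb3. Over the 16 the median was -0.18, and with 1 array left out between 1 and 2 members were called. Nid2 stayed called in each of these fits. The call of Lamb3 was lost without stretch replicate 1 (adjusted p = 0.0641), and the calls of both collagen chains without any 1 of the 6 arrays (0.0672 to 0.293). Another probe set of Col4a1 gave -0.80 and was called.

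Of 34 other collagens and matrix proteins, 2 were called, both lower in stretch. These were Col18a1, the source of endostatin (-0.84 ± 0.10; adjusted p = 0.012), and Vcan, the proteoglycan versican (-0.78 ± 0.12; 0.03). The list's median was 0.04, with 20 members above 0. The other probe set of Col18a1 gave -0.93 (adjusted p = 0.00627), while 4 further ones of Vcan gave -0.08 to -0.38 and were not called. Among 24 matrix proteases and inhibitors, Mmp12, macrophage elastase (0.81 ± 0.13; 0.0304), and Serpinb2, an inhibitor of plasminogen activators (0.68 ± 0.10; 0.0274), were higher in stretch and Adamts9, a versican-cleaving protease (-0.64 ± 0.10; 0.0266), was lower. Serpinb2 read 7.79 and 7.53 with stretch and 7.09 and 6.88 with phenylephrine, all under the array medians, and detection calls were not used. Another probe set of Adamts9 gave -0.02 (0.957). None of these 5 calls held without stretch replicate 1 (adjusted p = 0.12 to 0.235). Without stretch replicate 2 all but that of Serpinb2 were lost (0.13 to 0.245), and some were also lost without a control array (0.0504 to 0.075) or without phenylephrine replicate 2 (0.0942 and 0.122).

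Fibroblast markers, many of them matrix genes, were measured for 14 genes, and none was called in the limma fit, with 4 at an unadjusted p under 0.05. Their median difference was 0.15, and their mean signal was 10.42 and 10.35 with phenylephrine, 10.55 and 10.54 with stretch and 10.77 and 10.76 in controls. The control arrays were highest and the phenylephrine arrays lowest, and the part of fibroblasts in the matrix differences was not tested.

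**Figure D3:**
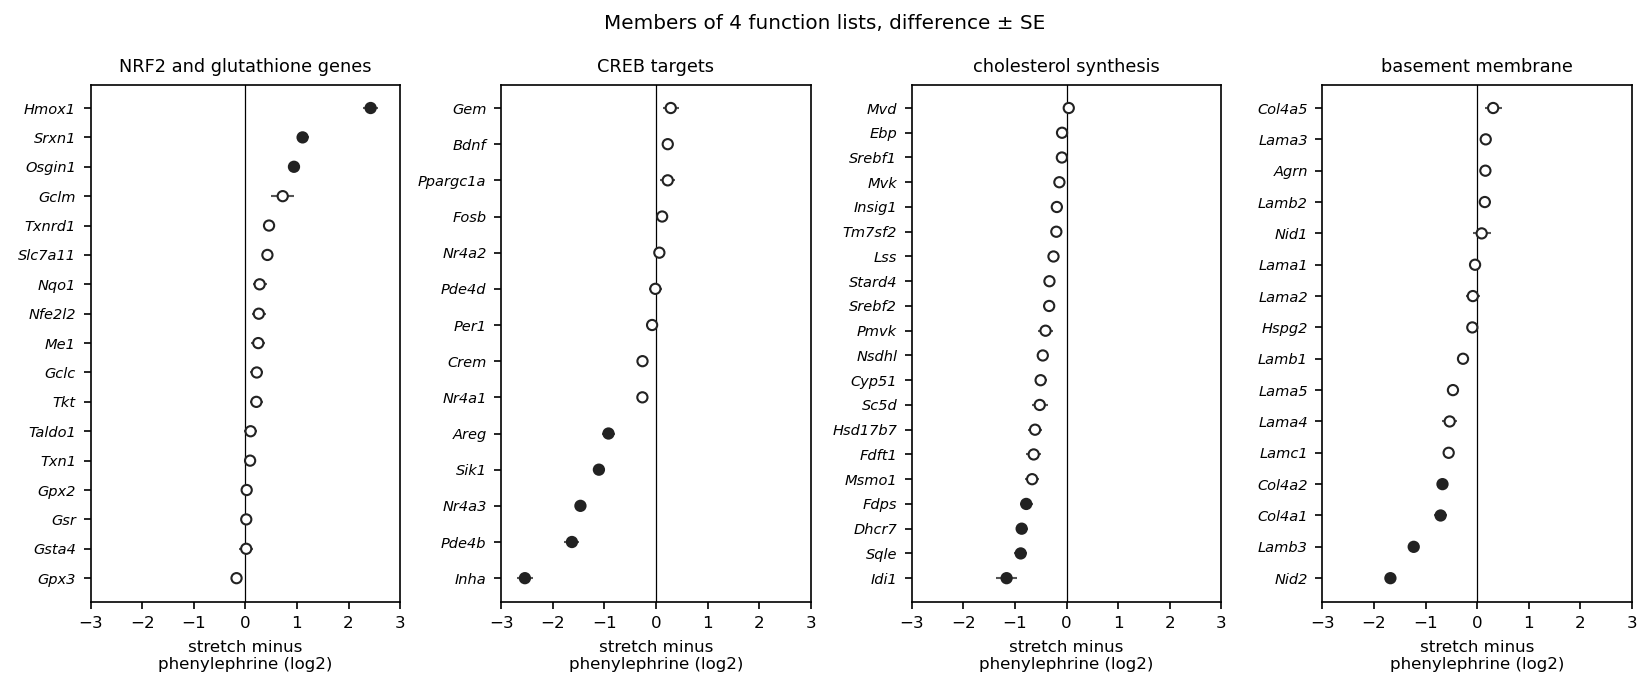
Difference stretch minus phenylephrine (log2) with its SE for every measured member of 4 lists, NRF2 and glutathione genes, CREB targets, cholesterol synthesis and basement membrane, filled where called. The calls of the first list lie right of 0, led by Hmox1 at 2.43, and those of the other 3 lie left of 0, led by Inha at -2.54, Idi1 at -1.16 and Nid2 at -1.68.

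Secreted growth factors were found on both sides. In the TGF-β and activin family, 23 measured genes gave 1 call higher in stretch (Gdf15) and 3 lower. Beside Inha, the lower ones were Tgfb3, transforming growth factor β3 (-0.86 ± 0.13; adjusted p = 0.0278), and Inhba, the β subunit that inhibin and activin A share (-0.79 ± 0.13; 0.0312). Another probe set of Inhba gave -0.17 (0.443) and was not called. Bmp7, a bone morphogenetic protein outside that list (1389403_at), read 10.54 and 10.49 with phenylephrine, 9.24 and 9.15 with stretch and 9.08 and 9.13 in controls (-1.32 ± 0.09; 2.49-fold; 0.00143). Of 16 genes of the EGF family and neurotrophins, Areg was lower in stretch and Tgfa, transforming growth factor α, was higher (0.77 ± 0.09; 0.00958). These 2 ligands of the EGF receptor thus differed in opposite directions. The Tgfa signals were close to the array medians, at 8.65 and 8.59 with stretch and 7.92 and 7.78 with phenylephrine. Another probe set of Tgfa gave 0.40 (0.0844) and was not called.

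Of 28 other growth factors and vascular ligands, 3 were higher and 3 were lower in stretch. Higher were Igfbp5, a carrier of insulin-like growth factors (1.32 ± 0.11; adjusted p = 0.00255), Angpt2, angiopoietin 2 (0.67 ± 0.11; 0.0321), and Fgf1, acidic fibroblast growth factor (0.67 ± 0.12; 0.0477). Lower were Fgf18 (-0.83 ± 0.12; 0.0235) and Fgf16 (-0.70 ± 0.13; 0.0493), both fibroblast growth factors, and a further gene that the naming rule did not pick. Outside this list, Stc1, the secreted hormone stanniocalcin 1, was also lower in stretch (-0.70 ± 0.11; 0.0305). Igfbp5 (1370960_at) read 9.01 and 8.79 with phenylephrine, 10.23 and 10.20 with stretch and 10.09 and 10.16 in controls. Phenylephrine was the low group for Igfbp5, as for Angpt2 and Fgf1. Of the 4 other Igfbp5 probe sets, the largest difference was 0.52 and none was called. Other probe sets of Fgf1 gave 0.30 and 0.37, and those of Stc1 gave -0.83 and -0.87, again without a call.

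Igfbp5 and Bmp7 stayed called whichever array was left out. The other calls among these ligands, those of Tgfb3, Inhba, Tgfa, Angpt2, Fgf1, Fgf18, Fgf16 and Stc1, were lost without stretch replicate 1 (adjusted p = 0.0775 to 0.235) and without stretch replicate 2 (0.0543 to 0.355). All but those of Tgfa and Fgf18 were lost without control replicate 1 or 2 as well (0.055 to 0.0989), those of Inhba, Fgf18, Fgf16 and Stc1 without phenylephrine replicate 1 (0.0517 to 0.113), and those of Angpt2, Fgf1, Fgf18, Fgf16 and Stc1 without phenylephrine replicate 2 (0.0679 to 0.13).

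**Figure D4:**
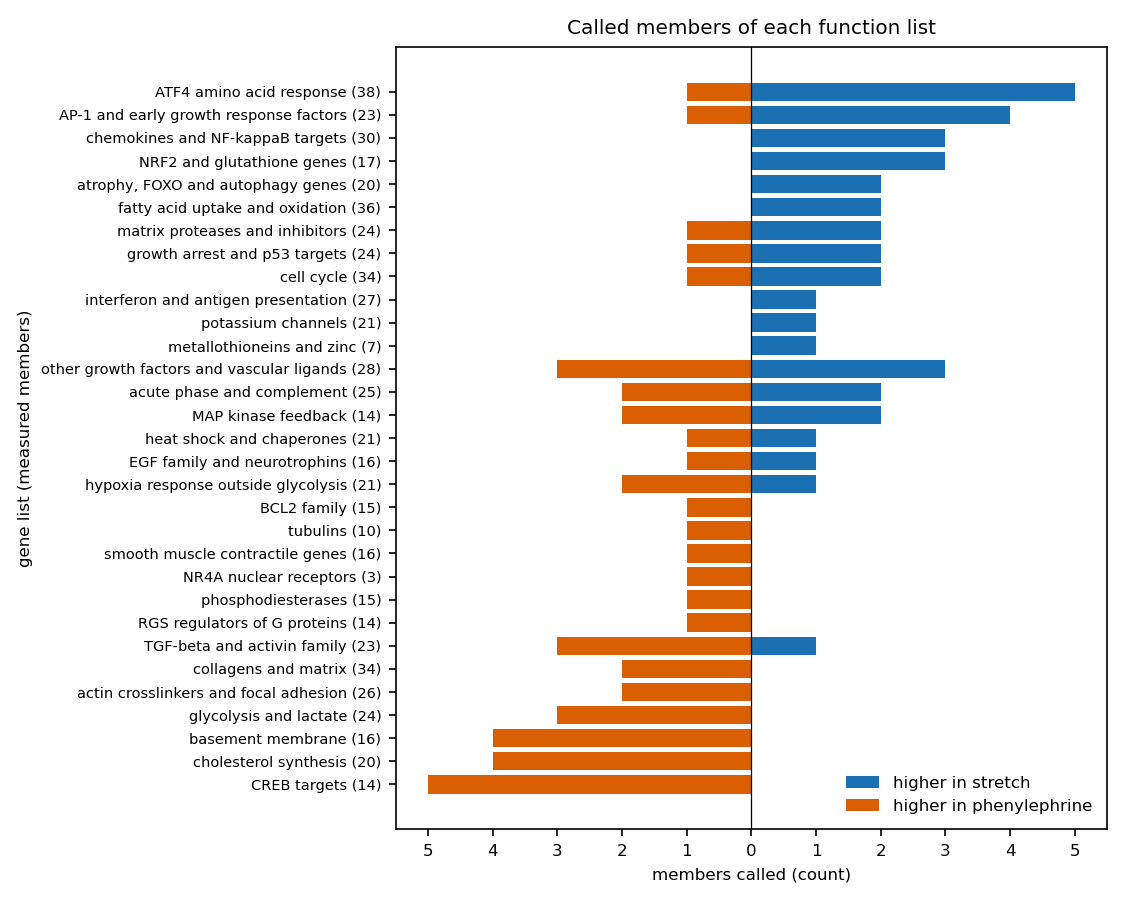
Number of called members of each function list with at least 1 call, to the right in blue where higher in stretch and to the left in orange where higher in phenylephrine. CREB targets (5), basement membrane and cholesterol synthesis (4 each) reach furthest to the left without a call on the right, and ATF4 response (5) reaches furthest to the right.

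Of 24 genes of glycolysis and lactate transport, 3 were called and all 3 were lower in stretch. With Eno3 these were Slc16a3, the lactate exporter MCT4, and Slc2a4, the insulin-dependent glucose transporter GLUT4 (-0.64 ± 0.11; adjusted p = 0.0381). Slc16a3 (1368965_at) read 12.12 and 11.66 with phenylephrine, 10.58 and 10.57 with stretch and 9.57 and 9.50 in controls, 2.49-fold higher in phenylephrine (-1.32 ± 0.16; 0.0113). Both stimuli thus lay above control. Over the 24 the median was -0.13, and 16 of its 24 differences were below 0. Another probe set of Slc2a4 gave -0.32 and was not called.

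Of 21 hypoxia-responsive genes outside glycolysis, 2 were lower in stretch, namely Ddit4 and Stc1. The 1 higher in stretch was Epas1, the hypoxia-inducible factor HIF-2α (1.02 ± 0.18; adjusted p = 0.0451), which read 11.56 and 11.41 with stretch, 10.74 and 10.19 with phenylephrine and 11.51 and 11.36 in controls. Its other probe set gave 0.08. The call of Slc16a3 was lost without stretch replicate 1 (adjusted p = 0.0944) or 2 (0.0902), that of Slc2a4 without any 1 array (0.0603 to 0.313), and that of Epas1 without any except phenylephrine replicate 1 (0.076 to 0.257). No member of the hypoxia list was called without either control array, where the calls of Ddit4 (0.0635 and 0.0626) and Stc1 (0.0773 and 0.0753) were lost too, or without either stretch array (0.18 to 0.268).

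Cholesterol synthesis had 20 measured genes, of which 4 were called and all 4 were lower in stretch. They were Idi1, isopentenyl diphosphate isomerase (-1.16 ± 0.21; adjusted p = 0.0432), Sqle, squalene epoxidase (-0.89 ± 0.13; 0.0206), Dhcr7, which makes the last step to cholesterol (-0.87 ± 0.11; 0.016), and Fdps, farnesyl diphosphate synthase (-0.78 ± 0.12; 0.0315). Idi1 (1368878_at) read 12.63 and 12.19 with phenylephrine, 11.37 and 11.13 with stretch and 10.87 and 10.38 in controls. The other 3 had the same order, phenylephrine above stretch above control. Of the 20 differences, 19 were below 0, and 14 had an unadjusted p under 0.05. The list median of -0.43 was the lowest of all lists, against 0.0086 over all genes, and with 1 array left out it lay between -0.51 and -0.29. After quantile normalization 13 of the 20 were called, and 14 with a term for the replicate number (replicate block). These settings called 1527 and 3734 probe sets in all, and the labels do not say that the replicate numbers pair arrays. Without stretch replicate 1 (adjusted p = 0.117 to 0.215) or stretch replicate 2 (0.168 to 0.277) none of the 4 remained. The calls of Idi1 and Fdps were also lost without phenylephrine replicate 1 (0.0993 and 0.0804) or 2 (0.0625 and 0.0683), and that of Sqle without control replicate 1 (0.0514) or 2 (0.0504).

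Of 36 genes of fatty acid uptake and oxidation, 2 were called, both higher in stretch, and 29 differences were above 0 with a median of 0.19. Fabp4, a fatty acid binding protein (1368271_a_at), read 10.09 and 9.74 with phenylephrine, 11.04 and 10.96 with stretch and 11.17 and 11.07 in controls (1.09 ± 0.14; adjusted p = 0.0155). Angptl4, an inhibitor of lipoprotein lipase, read 8.49 and 8.57 with phenylephrine, 9.10 on both stretch arrays and 9.63 and 9.48 in controls (0.57 ± 0.09; 0.0291). In both the control arrays stood highest and phenylephrine lowest, with stretch at -0.12 and -0.46 from control. Fabp4 is also known from endothelial cells and macrophages. Of 11 endothelial markers 1 was called, the receptor gene Kdr (0.80, chosen after its value was seen), and the median was 0.00. Of 14 macrophage and leukocyte markers none was called in the limma fit and 4 had an unadjusted p under 0.05. The mean of the endothelial markers was 8.44 on both phenylephrine arrays, 8.56 and 8.55 with stretch and 8.62 and 8.65 in controls. The part of these cells in the difference was not tested. The median of the fatty acid list was 0.08 without phenylephrine replicate 2, and no member was called without either stretch array. The calls of Fabp4 and Angptl4 were lost without stretch replicate 1 (adjusted p = 0.132 and 0.212) or 2 (0.108 and 0.216), and that of Angptl4 without any other single array (0.0504 to 0.0646).

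Lists of the mitochondrial core and the ribosome held no call. None of 20 citric acid cycle genes was called in the limma fit (1 with an unadjusted p under 0.05, largest difference Pdha1, pyruvate dehydrogenase, -0.30 ± 0.10, adjusted p = 0.282). None of 27 genes of oxidative phosphorylation was called either (1 with an unadjusted p under 0.05), the largest difference being that of the cytochrome oxidase subunit Cox7a1 (-0.81 ± 0.21; 0.138). None of 17 ribosomal protein genes was called and none had an unadjusted p under 0.05, with differences from -0.10 (Rpsa) to 0.07. Ribosome biogenesis, the making of ribosomes in the nucleolus, had 27 of 30 differences above 0 and a median of 0.20, but no call, with 12 at an unadjusted p under 0.05 and the largest difference in Gnl3, nucleostemin (0.64 ± 0.13; 0.0789). With 1 array left out that median lay between 0.11 and 0.26, both ends set by the phenylephrine arrays. After quantile normalization 5 of the 30 were called, and with the replicate block 14.

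Of 20 measured genes of atrophy, FOXO targets and autophagy, 2 were called, both higher in stretch, with a median of 0.28 and 16 differences above 0. Sqstm1, the autophagy receptor p62 (1371353_at), read 13.45 and 13.51 with stretch, 12.60 and 12.55 with phenylephrine and 13.06 and 12.92 in controls (0.90 ± 0.10; adjusted p = 0.00969). Pik3ip1, an inhibitor of PI3-kinase, read 11.01 and 11.02 with stretch, 10.27 and 10.29 with phenylephrine and 11.49 and 11.33 in controls (0.73 ± 0.11; 0.0289). Control thus lay between the stimuli for Sqstm1 and above both for Pik3ip1, where stretch was at -0.40 from control. The median was 0.12 when all probe sets of a gene were averaged and 0.11 without phenylephrine replicate 2. Of 3 other probe sets of Sqstm1, 1 was called (0.93) and 2 dimmer ones gave -0.03 and 0.14, while the other of Pik3ip1 gave -0.05. The call of Sqstm1 was lost without stretch replicate 1 (adjusted p = 0.0911) or 2 (0.108), and that of Pik3ip1 without any 1 array (0.0502 to 0.239).

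Of 34 cell cycle genes, 2 were higher in stretch, Cks2 and the mitotic checkpoint kinase Bub1 (0.57 ± 0.09; adjusted p = 0.0274). The 1 lower was Ccnd3, cyclin D3 (-0.61 ± 0.11; 0.0402). Bub1 was dim, at 8.22 and 8.05 with stretch and 7.51 and 7.63 with phenylephrine, all under the array medians. The list median was 0.07. Of 24 growth arrest and p53 genes, 2 were higher in stretch. They were Gadd45g (1.01 ± 0.12; 0.00998) and Gadd45b (0.67 ± 0.11; 0.0341), stress sensors that act on MAP kinases. Gadd45g (1388792_at) read 11.96 and 11.82 with stretch, 10.88 and 10.87 with phenylephrine and 10.17 and 10.03 in controls, so that both stimuli lay above control. Phlda1, a protein of growth control, was lower in stretch (-0.80 ± 0.09; 0.00809). It was dim, at 7.98 and 7.86 with stretch, under the array medians, and 8.81 and 8.62 with phenylephrine. Bok, a member of the BCL2 family that promotes cell death (1373733_at), read 11.82 and 11.69 with phenylephrine, 10.97 and 10.96 in controls and 10.55 and 10.54 with stretch (-1.21 ± 0.11; 0.00378). It was the 1 call of 15 in its family.

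Cks2 stayed called whichever array was left out. The calls of Bok and Gadd45g were lost without stretch replicate 1 (adjusted p = 0.0613 and 0.12) or 2 (0.0547 and 0.0732), and that of Phlda1 without stretch replicate 2 (0.063). Those of Bub1 and Ccnd3 were lost without either phenylephrine array (0.0559 to 0.0828) or either stretch array (0.0642 to 0.332), and that of Gadd45b without any except phenylephrine replicate 1 (0.0804 to 0.297). Without a control array that of Ccnd3 was lost too (0.121).

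Among inflammatory genes, calls were few. Of 30 chemokines and targets of NF-κB, 3 were higher in stretch, the chemokines Cxcl11 (0.95 ± 0.14; adjusted p = 0.0274), Ccl20 (0.72 ± 0.13; 0.042) and Cxcl10 (0.67 ± 0.10; 0.0238). For Cxcl11 the arrays read 9.50 and 9.15 with phenylephrine, 10.31 and 10.23 with stretch and 10.84 and 10.63 in controls, so that control stood highest, as it did for Cxcl10. For Ccl20 stretch stood above control by 0.59. Irf7, the interferon regulatory factor, was the 1 call among 27 interferon and antigen presentation genes (0.63 ± 0.10; 0.03), a share that does not stand out from the 1.84% of all genes, again with control highest. Of 25 acute phase and complement genes, Reg3b and Masp1, a protease of the lectin pathway of complement (1.09 ± 0.15; 0.0201), were higher in stretch. Pla2g2a, a secreted phospholipase A2 (-0.87 ± 0.12; 0.0187), and Lbp, which binds bacterial lipopolysaccharide (-0.54 ± 0.09; 0.0314), were lower. Lbp was dim, at 8.13 and 8.06 with stretch, under the array medians, and 8.74 and 8.53 with phenylephrine. Pla2g2a (1368128_at) read 12.57 and 12.53 in controls, 11.51 and 11.32 with phenylephrine and 10.58 and 10.51 with stretch, so that both stimuli lay below control and stretch lowest.

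None of the calls of Cxcl11, Ccl20, Cxcl10, Irf7, Masp1, Pla2g2a and Lbp held without stretch replicate 1 (adjusted p = 0.137 to 0.264) or stretch replicate 2 (0.0642 to 0.231). Without phenylephrine replicate 2 those of all 3 chemokines (0.0611 to 0.0785) and of Irf7 (0.0714) were lost, without phenylephrine replicate 1 those of Cxcl10 (0.0694) and Lbp (0.0652), and without a control array those of Ccl20, Irf7, Pla2g2a and Lbp (0.0504 to 0.0989). The other probe sets of Masp1 gave 0.33 and -0.02 and were not called.

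Of the 42 function lists, 11 held no call in the limma fit, and 10 of these 11 held at least 1 after quantile normalization. Those not yet described were the circadian clock, with 17 genes, 7 at an unadjusted p under 0.05 and the largest difference in the repressor Nr1d2 (0.51 ± 0.16; adjusted p = 0.232), and the connexins and intercalated disc, with 14 genes, 4 at an unadjusted p under 0.05 and the largest difference in the adaptor Ank2 (0.76 ± 0.21; 0.173). Calls lay in 1 direction for 7 lists (higher in stretch) and 12 lists (lower in stretch), and in both for 12. No list was tested as a whole, and a count of calls near the background of 1.84% of all genes says nothing particular of its list.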

How the data were processed

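Expression was measured on 6 Affymetrix rat arrays, 2 per group, grouped by their titles. The deposited values, 1 per probe set and array, were taken as log2 signals because they ran from about 6 to 15. How the authors summarised, background-corrected and normalized them is not given in the sources used here. Detection calls were not used. Array medians differed by 0.0381, so the values were kept as deposited. Of 31099 probe sets, 57 array controls were left out. The platform annotation (2016) gave 1 gene symbol for 20826 of the 31042 probe sets tested, several for 436 and none for 9780; 20758 matched RefSeq (GRCr8) by Entrez identifier. Each gene was read from its brightest probe set by the mean of 6 arrays.

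All 6 arrays entered a fit with a mean for each group (limma 3.58.1 in R 4.3.3, lmFit and eBayes with an intensity trend, 3 residual and 4.8 prior degrees of freedom), with a two-sided contrast and Benjamini-Hochberg adjustment over 31042 probe sets. All adjusted p-values are from limma. No exact permutation test was run, since 2 arrays against 2 give a two-sided p of 0.333 at the lowest. The fit was tested on simulated data.

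Genes were named by a rule: the 15 largest non-overlapping called differences each way, up to 5 called members of each list or else its largest difference, and a panel of 20 genes. The members and the 51 lists (990 genes, 893 measured) were chosen with earlier results of these data known. Promoters were available for 11733 of the 14217 genes and for 21 of the 30 largest differences. Alternatives were quantile normalization, no trend, 4 arrays only, the brighter 50% of probe sets, a replicate block, averaged probe sets and leaving out each array.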

Additional observations from a re-analysis of the deposited data

How the results depend on the processing

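Of 413 probe sets called (223 higher and 190 lower in stretch; 3871 with an unadjusted p under 0.05), all 413 were also called after quantile normalization, which called 1527 (737 higher, 790 lower), and with a replicate block, which called 3734 (2440 higher, 1294 lower). With that block 9 of the 11 function lists without a call held at least 1. The fit on the 4 stretch and phenylephrine arrays only called 230 (124 higher, 106 lower). Without an intensity trend 495 were called, and among the brighter probe sets 434. With 1 array left out, 51 to 473 were called, 27 to 361 of them higher and 21 to 190 lower; where that leaves a group with 1 array, it is assumed to vary like the other groups. Of the 91 named calls, 62 were lost without stretch replicate 1, 60 without stretch replicate 2, 30 without phenylephrine replicate 2, 20 without phenylephrine replicate 1, 30 without control replicate 1 and 29 without control replicate 2, the controls entering only the estimate of the spread. The fit on 4 arrays lost 28, the fit without a trend 7 and that on brighter probe sets 5, some of which were no longer tested. No call changed direction. Differences that did, none of them called, were those of Rpsa, from -0.21 to 0.0092 over the omissions, Nppb (-0.18 to 0.042) and Myh7 (-0.26 to 0.0052), above 0 without stretch replicate 1, and of Atp2a2 (-0.093 to 0.17), below 0 without phenylephrine replicate 1 (-0.021) or stretch replicate 2; the cause was not tested. The labels do not say that the numbers 1 and 2 pair arrays across groups. Deviations of same-numbered arrays from their group means correlated at 0.49 to 0.67 across probe sets, which describes the arrays. Differences of dim and of very bright probe sets may be compressed, which was not measured, and the number of arrays limits the precision.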
